A study of Mus musculus with 10 samples.

Results

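Interferon response genes were described across 10 RNA sequencing libraries of mouse Leydig cells, the testosterone-producing cells that lie between the seminiferous tubules. The genes were 46 members named by symbol, and all 46 were found among the 25239 symbols of the count table. They fall into 6 RNA sensors, 3 transcription factors of the STAT and IRF families, 26 targets of type I interferon in 3 lists, and 11 gamma-type targets. MLTC-1, a mouse Leydig tumour cell line, was given hymeglusin (n = 3) or DMSO, a common solvent (n = 3). Hymeglusin, a natural beta-lactone, blocks the HMG-CoA synthase of the cytosol. Primary Leydig cells without treatment came from testes of mice aged 24 months (n = 2) or 2 months (n = 2). The labels give neither dose nor duration for hymeglusin, and neither strain nor method of isolation for the primary cells. Whether the libraries of a group came from separate cultures or animals is not stated either, and the spread behind each p-value may thus be technical.

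Interferons are secreted proteins through which cells warn each other of infection. Receptors of the RIG-I family sense foreign or double-stranded RNA in the cytosol and switch on type I interferon genes. The secreted interferon acts through its receptor, the kinases JAK1 and TYK2, and a complex with STAT2 and IRF9 that binds the interferon-stimulated response element (ISRE). Interferon gamma acts through a separate receptor and the kinases JAK1 and JAK2, and many of its targets carry the gamma-activated site (GAS), with IRF1 as an early target that itself binds ISRE-like elements. The target sets overlap, so a gene called gamma-type here can also respond to type I interferon. In the testis, macrophages lie beside Leydig cells and are a known source of cytokines.

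Library totals lay between 17407456 and 34787330 counts. A count of 0 allows for 3 counts, or 0.0873 to 0.199 CPM (a count scaled by library size) depending on the library, for counting error only. The replicates at 24 months stood apart from each other, with a chi-square per degree of freedom of 134 over genes, against 18.9 for the pair at 2 months. Pairs of MLTC-1 replicates gave 4.26 to 7.67 with hymeglusin and 3.44 to 7.06 with DMSO. Of 8 Leydig cell markers, 0 were at 0 counts throughout any group. Hsd17b3, the testicular enzyme of the last step to testosterone, was near 0 in the line, with 2, 9 and 4 counts with hymeglusin and 0, 0 and 1 counts with DMSO, while the primary libraries had 13260 and 25278 counts at 24 months and 26309 and 23487 counts at 2 months.

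The letters of the response elements were searched in windows from 250 bases before to 50 bases after each annotated start, taken from RefSeq (build GRCm38.p6), where 33 of the 46 members matched. The ISRE core (GAAA, any 2 bases, then GAAA again), on both strands, was found in 20 of these 33 members, or 60.6%, against 3.99% of 27025 genes. The GAS letters TTCNNNGAA, which read the same on both strands, were found in 12 of 33 members, or 36.4%, against 9.55% of genes. The ISRE core lay in 7 of 8 gamma-type targets, 9 of 18 type I targets and 3 of 4 RNA sensors. The GAS letters lay in 5 of 8, 5 of 18 and 2 of 4 of the same lists. Both searches were run on the whole window, so matches may overlap, and a match says only that these letters are there. The 4 windows shown here, 5′ to 3′ with the matched letters in capitals, belong to genes on which the comparisons turn: Ddx58 as a sensor, Rsad2 as a type I target, Irf1 as a gamma-type target with GAS letters alone, and Igtp as a gamma-type target with both.
Ddx58, chr4:40239776-40240075, minus strand, ISRE core from base 3 after the start: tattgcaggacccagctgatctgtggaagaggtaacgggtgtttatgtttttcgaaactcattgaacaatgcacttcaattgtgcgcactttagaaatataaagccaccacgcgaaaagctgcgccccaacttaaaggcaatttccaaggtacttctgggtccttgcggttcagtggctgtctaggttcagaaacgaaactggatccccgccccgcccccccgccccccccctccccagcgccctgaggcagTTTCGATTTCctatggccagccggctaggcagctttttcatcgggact
Rsad2, chr12:26456403-26456702, minus strand, ISRE core from base -120: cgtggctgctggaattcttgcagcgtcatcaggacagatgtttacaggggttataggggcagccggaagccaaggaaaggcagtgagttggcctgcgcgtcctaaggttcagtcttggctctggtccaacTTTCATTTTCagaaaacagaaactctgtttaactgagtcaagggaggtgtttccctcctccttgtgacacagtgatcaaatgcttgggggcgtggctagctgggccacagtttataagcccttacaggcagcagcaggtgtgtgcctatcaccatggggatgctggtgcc
Irf1, chr11:53769764-53770063, plus strand, GAS from base -90: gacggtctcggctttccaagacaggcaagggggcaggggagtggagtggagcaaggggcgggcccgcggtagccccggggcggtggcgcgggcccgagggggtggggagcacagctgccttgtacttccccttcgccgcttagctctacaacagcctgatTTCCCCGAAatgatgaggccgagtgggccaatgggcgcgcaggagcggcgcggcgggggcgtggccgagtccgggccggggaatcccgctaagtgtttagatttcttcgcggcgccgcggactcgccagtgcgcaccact
Igtp, chr11:58199306-58199605, plus strand, GAS from base -45 and ISRE core from base -34: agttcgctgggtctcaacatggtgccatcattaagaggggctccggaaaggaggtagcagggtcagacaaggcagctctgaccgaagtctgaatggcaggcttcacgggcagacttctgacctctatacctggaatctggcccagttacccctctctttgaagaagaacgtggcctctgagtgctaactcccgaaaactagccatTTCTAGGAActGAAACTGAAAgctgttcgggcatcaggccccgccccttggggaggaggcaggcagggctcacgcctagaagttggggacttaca

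Many members are neighbours in the genome. Ifit1, Ifit2 and Ifit3 lie within 99.5 kilobases of chromosome 19 (34550550 to 34650009), and Oas1a, Oas2 and Oas3 within 177 kilobases of chromosome 5 (120730333 to 120907544), in GRCm38.p6. Gbp2, Gbp3, Gbp5 and Gbp7 lie within 141 kilobases of chromosome 3 (142496934 to 142638008). Igtp and Irgm2 lie within 23.2 kilobases of chromosome 11 (58199556 to 58222783). Copies of near-identical sequence may have shared or lost reads in the counting, so the levels of single Ifit, Oas, Mx, Gbp and Irgm genes are uncertain. The strand setting of the counting is not given in the sources used here, so reads of overlapping genes cannot be told apart. This concerns Parp9 with Dtx3l, Ifi27 with Ifi27l2a, Ifit1 with Ifit1bl1, Adar with Chrnb2, Stat2 with Apof, Rtp4 with Masp1, Eif2ak2 with Gm6548, and Gbp2 with Mir6381.

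The level of many members was low in the tumour line. Members that averaged under 1 CPM numbered 22 of 46 with hymeglusin, 24 of 46 with DMSO, and 5 of 46 at each age in the primary cells. Members with 0 counts in every library of a group numbered 1 with hymeglusin (Zbp1), 9 with DMSO (Zbp1, Ifit1, Oas1a, Oas2, Mx1, Ifi44, Gbp5, Gbp6 and Gbp9) and 0 at either age. The summed level of the 46 genes was 919, 804 and 825 CPM with hymeglusin, 648, 654 and 643 CPM with DMSO, 3140 and 3028 CPM in the 24-month libraries, and 2080 and 1934 CPM in the 2-month libraries. Levels are CPM scaled by TMM over all 10 libraries, and fold changes come from the separate fit of each comparison. Adjusted p-values are those of edgeR's quasi-likelihood F-test with Benjamini-Hochberg adjustment over all genes tested, and a gene past 0.05 is said to have risen or fallen.

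**Figure D1:**
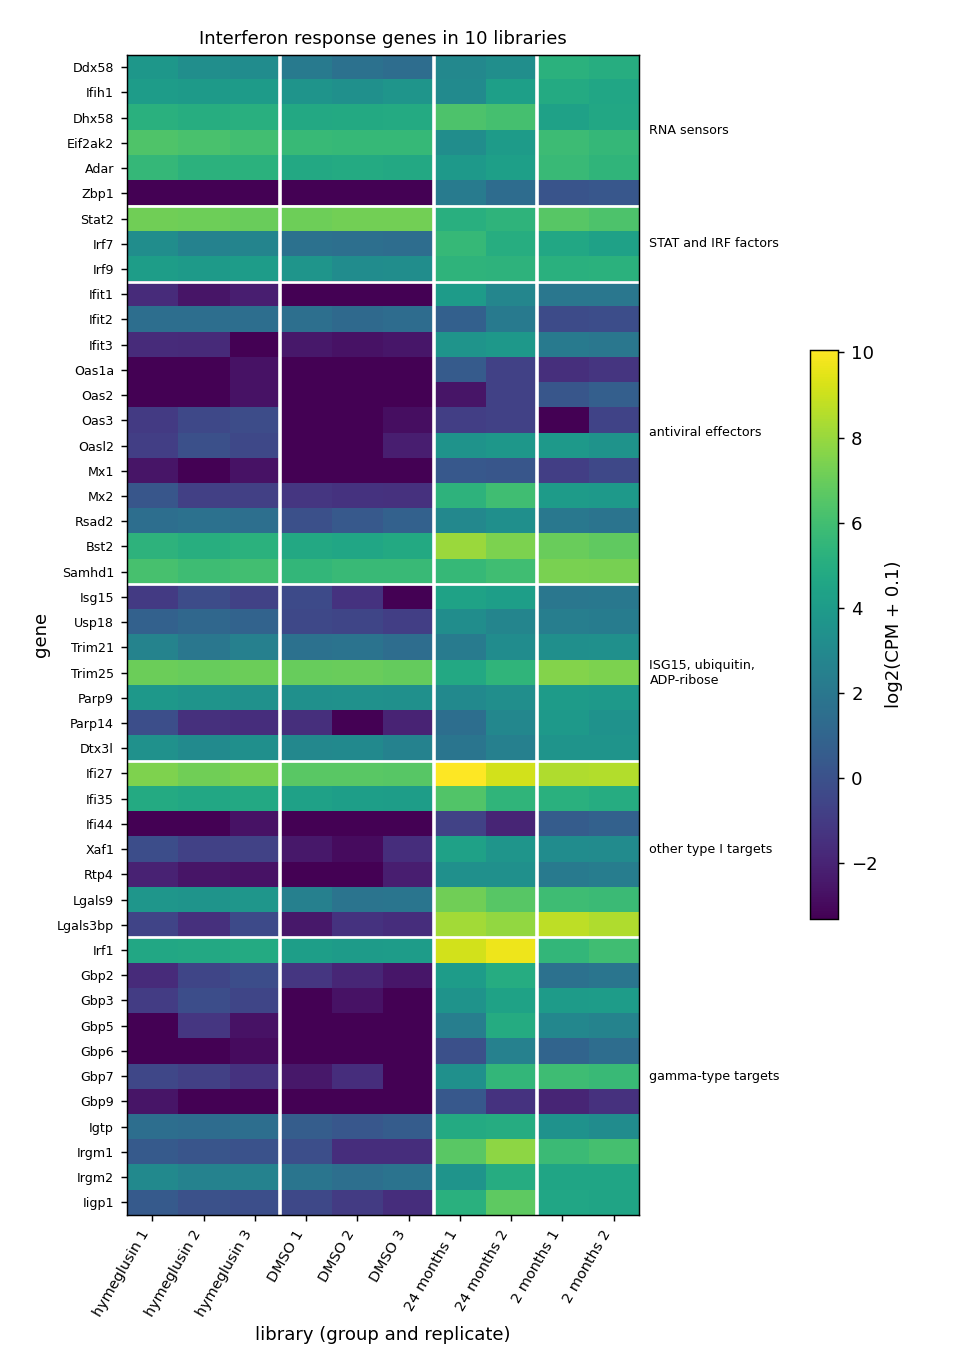
Level of each of the 46 genes (rows, by role) in each of the 10 libraries (columns), as log2(CPM + 0.1) on the colour scale. The MLTC-1 columns are dark for many antiviral effectors and gamma-type targets, where 24 of 46 genes averaged under 1 CPM with DMSO, and the primary cell columns are brighter, where 5 of 46 did.

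Hymeglusin was compared with DMSO in MLTC-1 cells to ask whether the inhibitor moved the response genes of the line. Most of those that could be tested were higher with it: sensors such as Ddx58 (RIG-I), the factor Irf7, and targets of both kinds such as Lgals9 and Irgm2. Of 31 members that passed the filter on low counts, 25 rose, 1 fell (Stat2) and 5 did not pass the threshold, while over all 12873 genes tested 23.8% rose and 24.5% fell. Their median log2 fold change was 0.73, against 0.01 over all genes. At least 2-fold rises numbered 11 of 31, against 2.86% of all genes, and at least 2-fold falls 0, against 1.15%. All hymeglusin libraries lay above all DMSO libraries for 26 of 31 members and below for 0, against 35.6% and 19.6% of all genes. A member that passed the filter only through its counts with hymeglusin had to differ, so the count was also taken over members with a mean of at least 10 CPM, where 10 rose and 1 fell of 13, against 28.1% and 27.7% of all genes. Among these 13 the largest log2 rise in the main fit was 0.65 (Ifi27). The at least 2-fold rises thus all lay in members under that mean, some of them with few counts with DMSO. In a single fit of all 10 libraries, which shares the wider spread of the primary cells, 13 of 45 members rose and 0 fell, against 3.77% and 1.69% of all genes.

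All 5 RNA sensors that could be tested rose. Ddx58, the RNA helicase RIG-I, had 13.5, 9.52 and 8.91 CPM with hymeglusin, against 4.44, 3.09 and 2.69 CPM with DMSO (log2 1.58 ± 0.172 SE, adjusted p = 1.01e-08). The groups did not overlap, and hymeglusin replicate 1 was the highest of the 6. Eif2ak2, the kinase PKR that halts translation on double-stranded RNA, had 82.0, 75.5 and 65.1 CPM with hymeglusin, against 50.9, 49.3 and 50.1 CPM with DMSO (log2 0.50 ± 0.0693, adjusted p = 5.18e-07). Adar, which edits adenosines in double-stranded RNA, had 48.9, 39.0 and 36.7 CPM with hymeglusin, against 27.1, 28.9 and 26.4 CPM with DMSO (log2 0.52 ± 0.0848, adjusted p = 7.43e-06). In each of these the lowest hymeglusin library stood above the highest DMSO library. Ifih1, the helicase MDA5, rose by log2 0.40 ± 0.0967, and Dhx58, the related helicase LGP2, by log2 0.22 ± 0.0726. Without hymeglusin replicate 1 the Dhx58 difference was log2 0.17 with an adjusted p of 0.107. Zbp1, a sensor of left-handed nucleic acids, had 0 counts in all 6 libraries.

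The factors divided. Irf7, which amplifies type I interferon transcription, had 9.30, 6.04 and 6.52 CPM with hymeglusin, against 3.10, 2.82 and 2.62 CPM with DMSO (log2 1.28 ± 0.170, adjusted p = 9.41e-08). Irf9, the DNA-binding part of the STAT complex, had 17.2, 15.5 and 16.5 CPM with hymeglusin, against 12.6, 8.99 and 9.41 CPM with DMSO (log2 0.60 ± 0.109, adjusted p = 1.95e-05). Stat2, its partner, had 143, 135 and 129 CPM with hymeglusin, against 139, 148 and 146 CPM with DMSO (log2 -0.16 ± 0.0522, adjusted p = 0.0108). The Stat2 groups overlapped, and the fall was not called when libraries were scaled by total counts (log2 -0.05, adjusted p = 0.397) or without hymeglusin replicate 3 (log2 -0.11, adjusted p = 0.104).

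Of the 26 type I targets, 17 were tested, 12 rose and 0 fell. Among the 12, Oas3, Oasl2 and Xaf1 passed the filter only through their hymeglusin libraries, so a rise was favoured in them. Among the antiviral effectors the largest fitted changes belonged to genes close to 0 in the DMSO libraries. Oas3, which makes the oligoadenylates that activate RNase L, had 11, 19 and 26 counts with hymeglusin and 0, 0 and 1 counts with DMSO, a ratio of 51.3 with a 95% interval of 8.84 to 2063 (adjusted p = 1.03e-05). Oasl2, a related protein, had 13, 26 and 22 counts with hymeglusin and 0, 0 and 3 counts with DMSO, a ratio of 18.6 with an interval of 6.08 to 92.9 (adjusted p = 4.13e-05). These ratios rest on few reads, and their intervals cover counting error only. Bst2, the tetherin that holds virus particles at the cell surface, had 40.2, 33.9 and 37.3 CPM with hymeglusin, against 26.8, 24.1 and 27.6 CPM with DMSO (log2 0.44 ± 0.0767, adjusted p = 1.18e-05). The groups did not overlap. Rsad2, the radical SAM enzyme viperin, rose by log2 1.12 ± 0.240, and Samhd1, which breaks down deoxynucleotides, by log2 0.28 ± 0.0678. Mx2, an antiviral GTPase, gave log2 1.09 ± 0.474 with an adjusted p of 0.0551, and Ifit2, which binds foreign RNA, log2 0.06 with an adjusted p of 0.832. Mx2 passed the threshold under upper quartile scaling (0.0472), total count scaling (0.0324), and without hymeglusin replicate 2 (0.0459) or 3 (0.0413).

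The other effectors were too low to test. Ifit1 had 12 counts in all with hymeglusin and 0 with DMSO, which makes it at least 3.67-fold higher against a floor of 3 counts over the group. Low counts were mostly even, and whether both mates of a read pair were counted is not given in the sources used here. If they were, such bounds and the counting intervals are too tight. Mx1 had 4 counts with hymeglusin and 0 with DMSO, at least 1.22-fold higher. Ifit3 had 6, 6 and 0 counts with hymeglusin and 2, 2 and 2 counts with DMSO. Oas1a and Oas2 had 2 counts each with hymeglusin and 0 with DMSO, under the floor in both groups.

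In the list around ISG15, the ubiquitin-like modifier, 3 of 6 tested members rose. Usp18, which removes ISG15 and dampens the type I receptor, had 1.65, 2.08 and 1.83 CPM with hymeglusin, against 0.652, 0.582 and 0.468 CPM with DMSO (log2 1.63 ± 0.307, adjusted p = 3.73e-05). Trim21, a ubiquitin ligase and antibody receptor, had 6.25, 3.82 and 5.66 CPM with hymeglusin, against 3.10, 3.29 and 2.62 CPM with DMSO (log2 0.73 ± 0.181, adjusted p = 0.00107). Dtx3l, the ubiquitin ligase that pairs with Parp9, had 10.8, 8.38 and 9.88 CPM with hymeglusin, against 7.62, 8.06 and 6.01 CPM with DMSO (log2 0.35 ± 0.126, adjusted p = 0.0231). None of the 3 overlapped between groups, but the Dtx3l call was lost without hymeglusin replicate 1 (adjusted p = 0.161) or 3 (0.0539) and without DMSO replicate 3 (0.149). Isg15 itself had 11, 23 and 18 counts with hymeglusin and 17, 10 and 0 counts with DMSO, and its groups overlapped (log2 0.73 ± 0.565, adjusted p = 0.30). Without DMSO replicate 1, the highest of the 3, Isg15 gave log2 1.70 with an adjusted p of 0.0401. Trim25, a ligase for ISG15 and for RIG-I, had 134, 123 and 132 CPM with hymeglusin, against 122, 128 and 121 CPM with DMSO (log2 -0.00, adjusted p = 0.963). Parp9 gave log2 0.12 with an adjusted p of 0.379, and Parp14, an ADP-ribosyltransferase, was not tested, with 40 counts in all with hymeglusin and 10 with DMSO.

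All 4 tested members of the last type I list rose. Ifi27, a small membrane protein of mitochondria and endoplasmic reticulum, had 180, 144 and 161 CPM with hymeglusin, against 99.8, 100.01 and 94.2 CPM with DMSO (log2 0.65 ± 0.0601, adjusted p = 1.34e-10). Lgals9, the sugar-binding protein galectin-9, had 13.1, 12.2 and 13 CPM with hymeglusin, against 5.58, 3.49 and 3.51 CPM with DMSO (log2 1.55 ± 0.140, adjusted p = 1.92e-11). Ifi35 had 29.1, 26.3 and 27.0 CPM with hymeglusin, against 20.1, 17.8 and 17.6 CPM with DMSO (log2 0.50 ± 0.0815, adjusted p = 3.91e-06). All hymeglusin libraries lay above every DMSO library in these 3. Xaf1, a partner of the apoptosis inhibitor XIAP, rose by log2 2.39 ± 0.605 on 23, 15 and 18 counts with hymeglusin and 2, 1 and 6 counts with DMSO. Rtp4, a receptor chaperone, was not tested and had 8 counts in all with hymeglusin and 3 with DMSO, a ratio of 2.44 with an interval of 0.587 to 14.3. Lgals3bp, a secreted partner of galectin-3, had 48 counts with hymeglusin and 18 with DMSO, and Ifi44 had 2 and 0.

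All 6 gamma-type targets that could be tested rose. Of these, Gbp3, Irgm1 and Iigp1 passed the filter only through their hymeglusin libraries, so a rise was favoured in them. Irf1 alone of the 6 was among the members with a mean of at least 10 CPM. Irf1, the transcription factor whose promoter is shown above, had 25.6, 27.2 and 28.6 CPM with hymeglusin, against 18.1, 16.0 and 16.7 CPM with DMSO (log2 0.61 ± 0.0813, adjusted p = 8.83e-08). Irgm2, one of the immunity-related GTPases, had 8.07, 6.0 and 6.02 CPM with hymeglusin, against 3.54, 2.82 and 3.28 CPM with DMSO (log2 0.99 ± 0.164, adjusted p = 4.78e-06). Gbp3, a guanylate-binding protein, had 12, 24 and 20 counts with hymeglusin and 0, 2 and 0 counts with DMSO, a ratio of 25.7 with an interval of 6.78 to 217 (adjusted p = 2.53e-05). The groups did not overlap for any of the 3. Igtp, another such GTPase, rose by log2 0.97 ± 0.231, Irgm1 by log2 1.35 ± 0.419 and Iigp1 by log2 1.14 ± 0.402. The Irgm1 call was lost without DMSO replicate 2 (log2 1.0, adjusted p = 0.0735). The Iigp1 call was lost without hymeglusin replicate 1 (0.115), DMSO replicate 2 (0.0635) or DMSO replicate 3 (0.106). Gbp5, a GTPase that helps assemble inflammasomes, had 0, 10 and 2 counts with hymeglusin and 0 with DMSO, at least 3.67-fold higher but from mostly 1 library. Gbp2 and Gbp7 had 51 and 42 counts with hymeglusin and 16 and 10 with DMSO, and Gbp6 and Gbp9 had 1 and 2 with hymeglusin and 0 with DMSO. The summed level of the 11 gamma-type genes was 40.3, 39.9 and 40.9 CPM with hymeglusin, against 24.9, 21.0 and 21.9 CPM with DMSO.

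**Figure D2:**
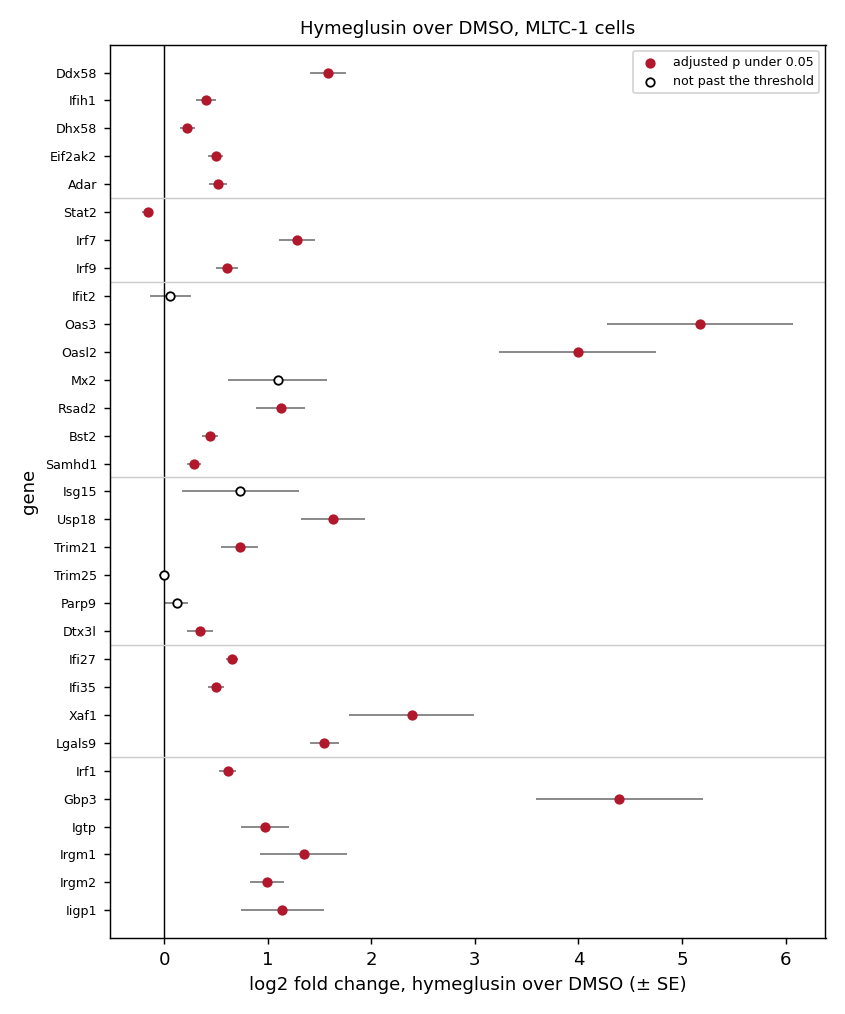
Log2 fold change, hymeglusin over DMSO (horizontal axis, bars ± SE), of the 31 genes tested in MLTC-1 cells, by role from the sensors at the top to the gamma-type targets at the bottom. Filled points passed an adjusted p of 0.05. All filled points but Stat2, at -0.16, lie right of 0, and the rightmost, Oas3 at 5.18 and Gbp3 at 4.39, rest on 1 and 2 counts in the DMSO group.

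The genes that carry the interferon signal were counted as well. Of 17 interferon genes none passed the filter with hymeglusin, and together they had 35 counts with hymeglusin and 15 with DMSO. Those with hymeglusin were 12 of Ifnl3, 9 of Ifnl2, 7 of Ifng, 4 of Ifna6, 2 of Ifna13 and 1 of Ifnz, and those with DMSO were 3 of Ifnl3, 7 of Ifnl2 and 5 of Ifng. Ifnb1 had 0 counts in all 10 libraries. Of 8 receptor chains and kinases tested, 2 rose and 0 fell, against 23.8% and 24.5% of all genes. The genes named from this and the following lists are those of smallest adjusted p in each direction, not of largest change. The kinase Tyk2 had 50.4, 43.1 and 49.0 CPM with hymeglusin, against 35.5, 38.5 and 37.7 CPM with DMSO (log2 0.28 ± 0.0667, adjusted p = 7.29e-04), and the groups did not overlap. Il10rb, a receptor chain shared by type III interferon and interleukin 10, rose by log2 0.17 ± 0.0648.

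Of 13 sensor adaptors tested, 3 rose, among them Cgas, the cytosolic DNA sensor (log2 0.74 ± 0.0927), and Ticam1, the adaptor TRIF (0.36 ± 0.0754), and 2 fell, Prkra (-0.41 ± 0.0731), the activator of PKR, and Rnf135 (-0.44 ± 0.113), a ligase for RIG-I. That is 23.1% and 15.4% of the adaptors, no more than the 23.8% and 24.5% of all genes. Of 12 negative regulators, 5 rose and 2 fell, with Ptpn11 (0.26 ± 0.0521) and Pias1 (0.34 ± 0.0695) among the rises, and Rnf125 (-0.56 ± 0.115) and Tnfaip3 (-0.82 ± 0.225) being the falls. Of 30 other interferon targets, 19 rose and 4 fell. Tor3a, an ATPase of the endoplasmic reticulum, rose by log2 1.51 ± 0.123 and Helz2 by 0.81 ± 0.0694. Cmpk2, a mitochondrial nucleotide kinase that lies beside Rsad2, went the other way, with 22.7, 19.1 and 20.7 CPM with hymeglusin, against 39.1, 36.7 and 31.3 CPM with DMSO (log2 -0.85 ± 0.0823, adjusted p = 1.03e-10). Mov10, an RNA helicase, fell by 0.47 on the log2 scale.

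Markers of other cell types were also summed in the line. The summed level of 16 macrophage markers was 12.6, 11.8 and 12.1 CPM with hymeglusin, against 8.19, 8.12 and 9.25 CPM with DMSO, and 1 and 8 of the 16 were at 0 in every library of these groups. Of the 4 tested 1 rose, against 23.8% of all genes. It was Csf1r, with 77, 79 and 66 counts with hymeglusin and 9, 10 and 2 counts with DMSO. The complement genes C1qa, C1qb and C1qc had 4, 2 and 0 counts in all with hymeglusin and 0 with DMSO. The summed level of 8 endothelial markers was 102, 100.03 and 109 CPM with hymeglusin, against 75.2, 81.2 and 81.1 CPM with DMSO. Nearly all of it came from Cdh5, with 98.1, 98.0 and 106 CPM with hymeglusin, against 74.3, 79.9 and 79.6 CPM with DMSO. Of the endothelial markers 2 of 3 tested rose. Their part in the changes of the interferon genes was not tested. In bulk RNA, more cells of a type and more RNA per cell cannot be told apart.

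At 24 months the response genes did not move as a block. Of the gamma-type targets 5 of 10 tested rose over 2 months, led by Irf1 and Gbp2, and several type I effectors rose, while the sensors Ddx58, Eif2ak2 and Adar and the ligase Trim25 fell. Of 45 members tested, 16 rose, 7 fell and 22 did not pass the threshold, against 13.5% that rose and 15.1% that fell of 16381 genes. The falls, at 15.6% of the members, were thus near the general share. Every change that passed was at least 2-fold. In data simulated with this spread over 16270 genes, 3% of log2 changes of 1 and 71% of log2 changes of 2 were recovered, and 11.9% of the calls were false. The median log2 fold change of the 45 was 0.91, against -0.01 over all genes. All 24-month libraries lay above all 2-month libraries for 24 of 45 members and below for 15, against 33.7% and 40.6% of all genes.

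These calls rest on few libraries. Without replicate 1 at 24 months 17 members rose and 9 fell (15.8% and 23.9% of all genes), and without replicate 2 at 24 months 20 rose and 14 fell (25.1% and 33.2% of all genes). Without replicate 1 at 2 months 2 rose and 1 fell, and without replicate 2 at 2 months 3 rose and 3 fell. In these last 2 settings 1.4% and 2.83% of all genes rose and 3.53% and 5.72% fell. Irf1, Gbp2 and Trim25 were called in every setting that was run.

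The age difference also followed transcript length. Over 16025 genes with a known length, Spearman's correlation of length with the log2 fold change was -0.62, and over the 45 members it was -0.64, a description across genes that are not independent. In the shortest decile of genes 814 rose and 25 fell, and in the longest 17 rose and 874 fell. Of 19 members with a longest transcript under 3000 bases, 11 rose and 0 fell, and of 26 longer members, 5 rose and 7 fell. When each library was given an offset for transcript length, 12 members rose and 4 fell, against 8.72% and 5.54% of all genes, and 11 of the 16 rises and 4 of the 7 falls remained. With hymeglusin the same correlation was 0.05 over 12631 genes and -0.27 over the 31 members, and with the offset 25 members rose and 1 fell as before.

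**Figure D3:**
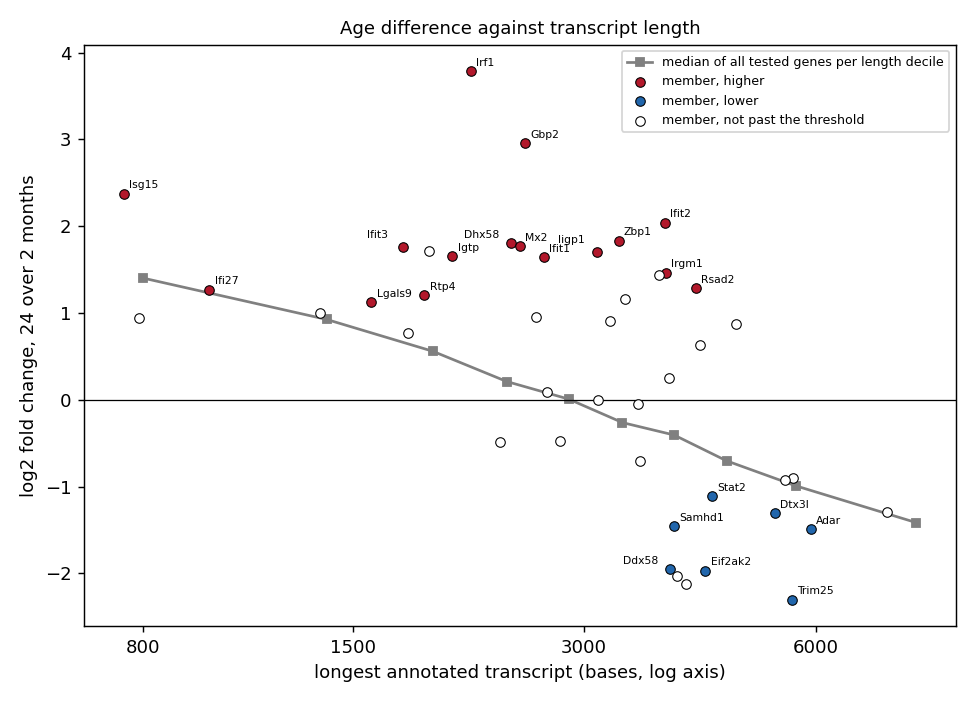
Log2 fold change, 24 over 2 months (vertical axis), against the longest annotated transcript in bases (horizontal log axis) for 45 interferon response genes (points, named where they passed the threshold) and the median of all tested genes in each decile by length (grey line). The grey line runs downward, by medians of 1.4 in the shortest decile and -1.41 in the longest. Irf1 and Gbp2 stand far above it, and Trim25, Ddx58 and Eif2ak2 below it.

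Among the RNA sensors 2 rose and 3 fell. Ddx58 had 7.42 and 9.52 CPM at 24 months, against 37.0 and 32.4 CPM at 2 months (log2 -1.95 ± 0.346, adjusted p = 0.00914). Eif2ak2 had 9.27 and 16.2 CPM at 24 months, against 56.8 and 48.7 CPM at 2 months (log2 -1.97 ± 0.377, adjusted p = 0.0105). Dhx58 had 80.3 and 68.8 CPM at 24 months, against 19.8 and 25.6 CPM at 2 months (log2 1.80 ± 0.328, adjusted p = 0.00944). So the helicases of RIG-I and LGP2 lay on opposite sides, with no overlap between ages in either. Adar fell by 1.49 on the log2 scale (± 0.338), and this call was lost with the length offset (-0.44). Zbp1 rose by log2 1.83 ± 0.577 on 71 and 62 counts at 24 months and 24 and 29 counts at 2 months. The Zbp1 call was lost without replicate 1 at 24 months (log2 1.27, adjusted p = 0.0981). Ifih1 gave log2 -0.93 with an adjusted p of 0.123. With the length offset Ddx58 (-1.57), Eif2ak2 (-1.44), Dhx58 and Zbp1 kept their calls.

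Of the factors, Stat2 had 35.0 and 41.7 CPM at 24 months, against 94.5 and 80.0 CPM at 2 months (log2 -1.11 ± 0.325, adjusted p = 0.0327). Its groups did not overlap, but with the length offset the fall was log2 -0.52 and was not called, and it was also not called under upper quartile or total count scaling. Irf7 had 49.9 and 32.4 CPM at 24 months, against 26.1 and 20.2 CPM at 2 months (log2 0.91, adjusted p = 0.0857), and with the length offset it was called (log2 1.09, adjusted p = 0.0450). Irf9 gave log2 0.25 with an adjusted p of 0.557.

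Of 26 type I targets tested, 9 rose and 3 fell. Among the antiviral effectors 5 rose and 1 fell. Mx2 had 39.4 and 61.5 CPM at 24 months, against 16.2 and 15 CPM at 2 months (log2 1.77 ± 0.353, adjusted p = 0.0116). Ifit3 had 12.2 and 13.9 CPM at 24 months, against 4.27 and 3.84 CPM at 2 months (log2 1.76 ± 0.386, adjusted p = 0.0142). Samhd1 had 50.5 and 60.8 CPM at 24 months, against 167 and 156 CPM at 2 months (log2 -1.46 ± 0.323, adjusted p = 0.0147). No group overlapped in these 3. Ifit1 rose by log2 1.65 ± 0.483, Ifit2 by log2 2.04 ± 0.663 and Rsad2 by log2 1.28 ± 0.418. The Ifit1 call was lost without replicate 1 at 24 months (log2 0.86), whose level of 16.0 CPM was above the 6.95 CPM of replicate 2, and the Ifit2 call without replicate 2 at 24 months (log2 1.08). The 6 effectors that did not pass ranged over log2 -2.03 for Oas2 to 1.72 for Oas1a. Oas2 and Oas3 had at most 40 counts in any of the 4 libraries.

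The list around ISG15 held opposite changes. Isg15 had 20.5 and 18 CPM at 24 months, against 3.81 and 4.04 CPM at 2 months (log2 2.37 ± 0.373, adjusted p = 0.00643). Trim25 had 26.6 and 42.8 CPM at 24 months, against 192 and 169 CPM at 2 months (log2 -2.30 ± 0.366, adjusted p = 0.00671). Dtx3l had 3.58 and 5.63 CPM at 24 months, against 12.1 and 12.1 CPM at 2 months (log2 -1.31 ± 0.405, adjusted p = 0.0390). The modifier was higher in both 24-month libraries and its ligase lower in both. Isg15 has the shortest transcript of the members and Trim25 is among the longest, and with the length offset Isg15 was not called (log2 0.98, adjusted p = 0.0830) while Trim25 was (log2 -1.36). Dtx3l lost its call with the offset and under upper quartile or total count scaling. Usp18, Trim21, Parp9 and Parp14 did not pass and ranged over log2 -1.29 to 0.77.

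Of the other type I targets 3 of 7 rose and 0 fell. Lgals9 had 141 and 96.3 CPM at 24 months, against 59.5 and 55.7 CPM at 2 months (log2 1.12 ± 0.343, adjusted p = 0.0379). Ifi27 had 1065 and 560 CPM at 24 months, against 353 and 364 CPM at 2 months (log2 1.27 ± 0.389, adjusted p = 0.0387). Rtp4 had 10.3 and 10.4 CPM at 24 months, against 4.43 and 5.07 CPM at 2 months (log2 1.2 ± 0.384, adjusted p = 0.0435). The 24-month libraries were the higher in all 3, but none was called with the length offset, where Ifi27 turned to log2 -0.02. Ifi35 (log2 1.0), Xaf1 (0.96), Lgals3bp (-0.48) and Ifi44 (-2.12) did not pass.

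Of 10 gamma-type targets tested, 5 rose and 0 fell, and Irf1 and Gbp2 had the largest log2 rises of all members tested. Irf1 had 571 and 856 CPM at 24 months, against 46.9 and 62.6 CPM at 2 months, which is 13.8-fold higher (log2 3.79 ± 0.387, adjusted p = 0.00140). Gbp2 had 17.0 and 31.1 CPM at 24 months, against 3.02 and 3.53 CPM at 2 months (log2 2.95 ± 0.425, adjusted p = 0.00494). Igtp had 29.2 and 31.5 CPM at 24 months, against 11.4 and 8.95 CPM at 2 months (log2 1.65 ± 0.344, adjusted p = 0.0128). In none of them did the ages overlap. Irgm1 rose by log2 1.47 ± 0.411 and Iigp1 by log2 1.70 ± 0.479. All 5 calls remained with the length offset, at log2 3.43 for Irf1, 2.80 for Gbp2, 1.21 for Igtp, 1.80 for Irgm1 and 1.78 for Iigp1. With total count scaling Irgm1 (adjusted p = 0.108) and Iigp1 (0.110) were not called, and Igtp, Irgm1 and Iigp1 were not called without either 2-month replicate, with adjusted p-values of 0.110 to 0.258.

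The 2 libraries at 24 months differed in the GTPases. Gbp5 had 5.23 CPM in replicate 1 and 29.8 CPM in replicate 2 at 24 months, against 7.25 and 6.34 CPM at 2 months, and Gbp7 had 10.6 and 46.5 CPM at 24 months, against 58.8 and 53.2 CPM at 2 months. Replicate 2 was also the higher for Gbp6 (0.861 and 5.75 CPM), Iigp1 (35.9 and 107 CPM) and Irgm1 (99.8 and 221 CPM). Neither Gbp5 nor Gbp7 was called. Without replicate 2 at 24 months Gbp7 fell (log2 -2.36) and Gbp5 gave log2 -0.34, and without replicate 1 Gbp5 rose (log2 2.15). The summed level of the 11 gamma-type genes was 794 and 1382 CPM at 24 months, against 248 and 268 CPM at 2 months. Gbp9, with 18 and 7 counts at 24 months and 4 and 7 counts at 2 months, was not tested.

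**Figure D4:**
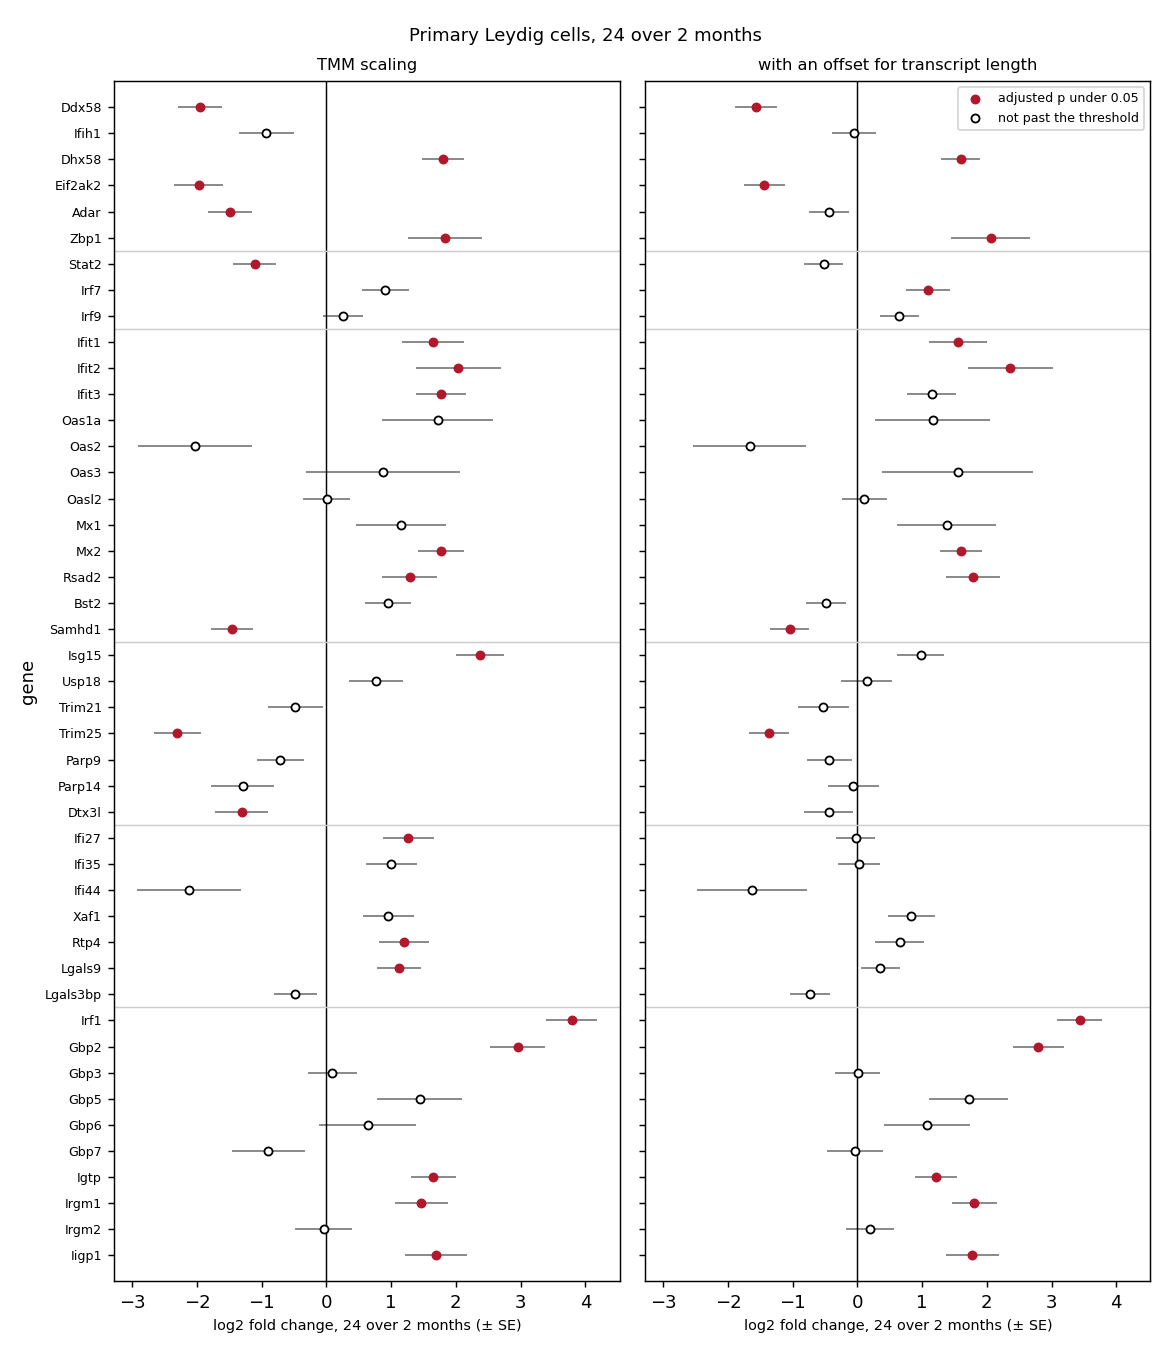
Log2 fold change, 24 over 2 months (horizontal axes, bars ± SE), of the 45 genes tested in primary Leydig cells, with TMM scaling on the left and with an offset for transcript length on the right. Filled points passed an adjusted p of 0.05. There are 23 filled points on the left and 16 on the right. All 5 filled gamma-type targets at the bottom stay filled, and Isg15, Ifi27, Adar and Stat2 do not.

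Upstream of the targets, interferon genes were rare at both ages. Of 17, those with counts were Ifnl3, with 107 and 94 counts at 24 months and 26 and 29 at 2 months, Ifnl2, with 49 and 34 at 24 months and 7 and 7 at 2 months, and Ifnk, with 0 at 24 months and 2 and 0 at 2 months. Both type III genes rose, Ifnl3 by log2 2.37 ± 0.539 (adjusted p = 0.0160) and Ifnl2 by log2 3.08 ± 0.756 (adjusted p = 0.0201), and as near-identical neighbours they may share reads. Their longest transcripts, of 582 and 702 bases, lie in the shortest decile of genes, where the median log2 fold change was 1.4. Ifnl2, with 7 counts in each 2-month library, passed the filter only through the 24-month libraries and had to differ. Ifng and Ifnb1 had 0 counts in all 4 primary libraries. Of 9 receptor chains and kinases 0 rose and 3 fell, among them Jak1, with 96.3 and 130 CPM at 24 months, against 357 and 311 CPM at 2 months (log2 -1.49 ± 0.336), and Jak2 (log2 -1.97 ± 0.407). Over all genes 13.5% rose and 15.1% fell. Jak1 and Jak2 have longest transcripts of 4906 and 5030 bases, in deciles where the median log2 fold change was -0.70 and -0.99. Values with the length offset were not taken for the ligands, receptors and kinases.

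Of 17 sensor adaptors 1 rose, Myd88 (log2 1.19 ± 0.331), the adaptor of Toll-like receptors, and 2 fell, Traf6 (-1.76 ± 0.373) and Traf3 (-1.46 ± 0.363). Over all genes 13.5% rose and 15.1% fell, so both counts of adaptors lay under the general shares. Of 13 negative regulators 4 rose and 1 fell. Socs1, the inhibitor of JAK kinases, had 161 and 88.6 CPM at 24 months, against 5.93 and 7.69 CPM at 2 months (log2 4.28 ± 0.431, adjusted p = 0.00140), a larger log2 difference than that of Irf1. Tnfaip3, the NF-kB inhibitor A20, rose by log2 3.86 ± 0.631, and Ptpn11, a phosphatase, fell by 1.82. Of 42 other interferon targets 8 rose and 5 fell. Cxcl10, a chemokine that draws T cells, had 278 and 594 CPM at 24 months, against 16.2 and 24.2 CPM at 2 months (log2 4.52 ± 0.474, adjusted p = 0.00143). Ifi47, another immunity-related GTPase, rose by log2 3.03 ± 0.450, and Irgq (-2.0 ± 0.361) and Znfx1 (-1.59 ± 0.328) were among the falls. The falls named from these lists have longest transcripts of 6083 to 7442 bases, and the named rises of 1773 to 6199 bases. Values with the length offset were not taken for these genes.

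Markers of other cells moved with age. The summed level of 16 macrophage markers was 295 and 286 CPM at 24 months, against 98.4 and 118 CPM at 2 months. Most of the 24-month sum came from Aif1 and Cd14. Aif1 had 132 and 98.5 CPM at 24 months, against 32.8 and 45.3 CPM at 2 months. Cd14 had 88.5 and 103 CPM at 24 months, against 9.07 and 8.32 CPM at 2 months. Of the 16 markers 0 were at 0 throughout either age. Of 13 tested, 6 rose (Cd14, C1qa, C1qb, C1qc, Lyz2 and Aif1) and 0 fell, against 13.5% and 15.1% of all genes. Another 3 had a negative log2 fold change, and Adgre1 and Mertk were lower in both 24-month libraries. The 6 that rose have longest transcripts of 875 to 1641 bases, against 3238 for Adgre1 and 4302 for Mertk. Values with the length offset were not taken for these markers. The 8 neutrophil markers had a summed level of 6.09 and 62.3 CPM at 24 months, against 0.207 and 0.158 CPM at 2 months. The 3 that were tested, S100a8, S100a9 and Camp, had 0 counts in both 2-month libraries, so they passed the filter only through the 24-month libraries and had to differ. S100a8 had 15 and 509 counts at 24 months. Replicate 2 at 24 months was the higher for the neutrophil sum and for Gbp5, Gbp7, Iigp1 and Irgm1. It was the lower for Bst2, Ifi27 and Ifi35, and for the summed lymphocyte, endothelial and spermatid markers. With 2 libraries some replicate is always the higher, so such a match cannot tie these genes to a cell type. Of 14 lymphocyte markers 4 were tested and 0 passed, with a summed level of 20.3 and 9.02 CPM at 24 months, against 6.88 and 5.31 CPM at 2 months. Of 9 spermatid markers 7 rose, with a summed level of 10275 and 5589 CPM at 24 months, against 1852 and 2506 CPM at 2 months. Their part in the changes of the interferon genes was not tested.

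The directions with hymeglusin and at 24 months, which share no library, are set side by side. Dhx58, Rsad2, Ifi27, Lgals9, Irf1, Igtp, Irgm1 and Iigp1 rose in both, which is 8 of the 25 that rose with hymeglusin and 8 of the 16 that rose at 24 months. Of those 16, 5 were not tested with hymeglusin. Over all 12356 genes tested in both comparisons, 8.75% of those that rose with hymeglusin and 20.05% of those that rose at 24 months rose in both. Of these 8, Ifi27 (log2 -0.02) and Lgals9 (0.35) were not called at 24 months with the length offset. Ddx58, Eif2ak2, Adar, Samhd1 and Dtx3l rose with hymeglusin and fell at 24 months, where Adar and Dtx3l lost the call with that offset. They are 5 of the 25 that rose with hymeglusin, near the share over all genes, where 21.5% of such genes fell at 24 months. They are also 5 of the 7 that fell at 24 months, against 28.9% of such genes. But 80.6% of the members tested with hymeglusin rose, so most members that changed at 24 months would be among those rises in any case. The shared members therefore do not link the comparisons. Stat2 was lower in both. The sizes differ, since Irf1 was higher by log2 0.61 with hymeglusin and 3.79 at 24 months, and no test of that difference was made across the cell types.

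**Figure D5:**
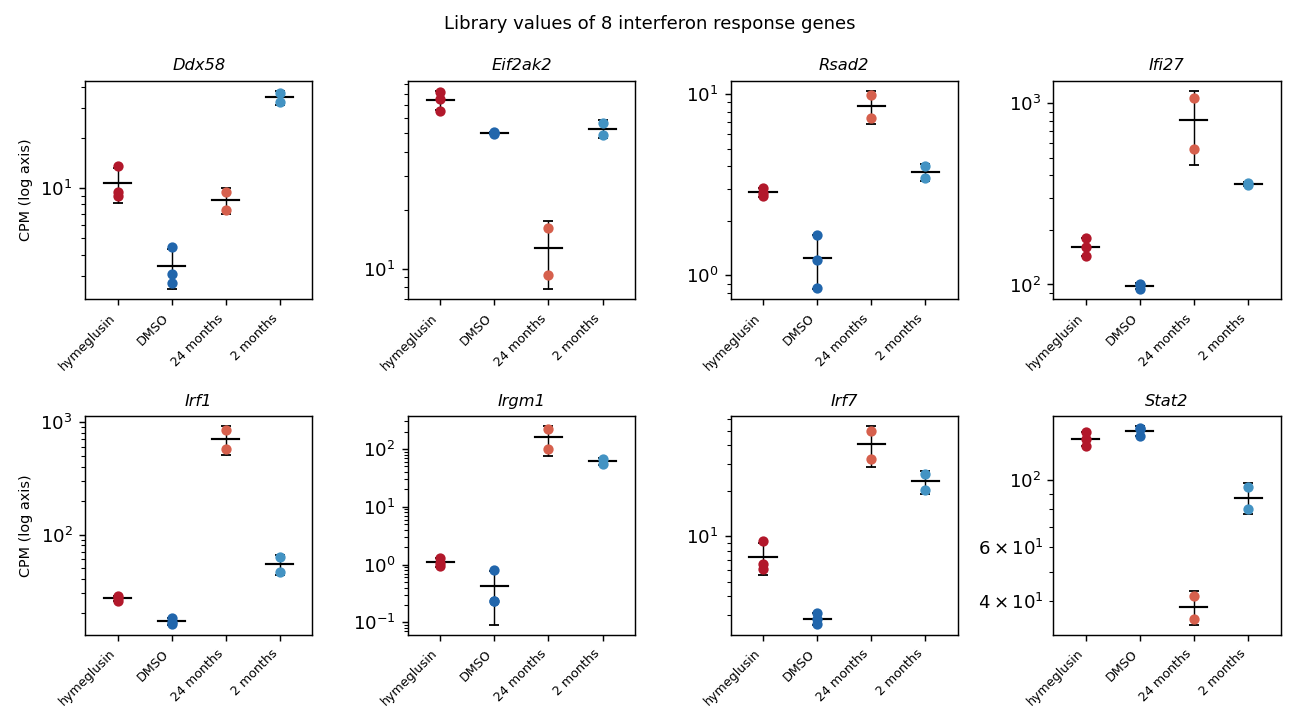
CPM (vertical log axes) of 8 interferon response genes in each library (points) of the 4 groups, with means (bars) and SD (whiskers), n = 3 with hymeglusin, 3 with DMSO, 2 at 24 months and 2 at 2 months. Ddx58 and Eif2ak2 are higher with hymeglusin than with DMSO and lower at 24 than at 2 months, while Rsad2, Ifi27, Irf1 and Irgm1 are higher in both pairs.

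DMSO-treated MLTC-1 cells were also set against 2-month primary cells, to place the level of the line. The line was below the primary cells in nearly every member: of 43 tested, 39 were lower, 2 were higher (Stat2 and Ifit2) and 2 did not pass (Dhx58 and Eif2ak2), against 48.5% lower and 34.4% higher of 16092 genes. Members near 0 in the line, such as the 7 tested ones with 0 counts, passed the filter only through the 2-month libraries and had to differ. Of 20 members with a mean of at least 10 CPM, 18 were lower and 1 was higher, against 43.3% and 39.9% of all genes. The median log2 fold change was -3.39, against -0.27 over all genes, and it was the same with the 7 tested members at 0 counts in the line set to their bounds. Spearman's correlation of transcript length with this log2 fold change was 0.19 over 15739 genes and 0.13 over the 43 members, and with the length offset 36 members were lower and 3 higher, against 40.9% and 43.1% of all genes. All DMSO libraries lay below both 2-month libraries for 39 of 43 members and above for 3, against 50.5% and 38.7% of all genes. The comparison shares its libraries with the controls of the other 2, and tumour origin and culture cannot be told apart.

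Of the sensors 4 of 6 were lower. Ddx58 had 4.44, 3.09 and 2.69 CPM with DMSO, against 37.0 and 32.4 CPM at 2 months (log2 -3.39 ± 0.195, adjusted p = 3.45e-07). Ifih1 had 12.1, 10.6 and 12.3 CPM with DMSO, against 29.2 and 24.4 CPM at 2 months (log2 -1.24 ± 0.132). Adar had 27.1, 28.9 and 26.4 CPM with DMSO, against 53.7 and 43.7 CPM at 2 months (log2 -0.86 ± 0.0978). The groups lay apart in all 3. Zbp1 had 0 counts with DMSO and 53 at 2 months, at least 30.2-fold lower. Eif2ak2 had 50.9, 49.3 and 50.1 CPM with DMSO, against 56.8 and 48.7 CPM at 2 months, and its groups overlapped (log2 -0.12 ± 0.0802, adjusted p = 0.207). Without replicate 2 at 2 months Eif2ak2 was lower (log2 -0.21, adjusted p = 0.0256) and Dhx58 was higher (log2 0.46, adjusted p = 0.00113).

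Of the factors, Irf7 had 3.10, 2.82 and 2.62 CPM with DMSO, against 26.1 and 20.2 CPM at 2 months (log2 -3.06 ± 0.176). Irf9 had 12.6, 8.99 and 9.41 CPM with DMSO, against 36.1 and 36.7 CPM at 2 months (log2 -1.86 ± 0.151). Stat2 had 139, 148 and 146 CPM with DMSO, against 94.5 and 80.0 CPM at 2 months (log2 0.69 ± 0.0753, adjusted p = 2.59e-05). Stat2 was thus higher in the line while its partner Irf9 was lower.

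Of 24 type I targets tested 23 were lower. Bst2 had 26.8, 24.1 and 27.6 CPM with DMSO, against 129 and 109 CPM at 2 months (log2 -2.23 ± 0.0931), though with the length offset the difference was log2 0.06. Mx2 had 0.326, 0.291 and 0.273 CPM with DMSO, against 16.2 and 15 CPM at 2 months (log2 -5.74 ± 0.243). Samhd1 had 46.1, 52.7 and 53.4 CPM with DMSO, against 167 and 156 CPM at 2 months (log2 -1.71 ± 0.0742). These effectors were lower in every DMSO library than in either 2-month library. Ifit2 went against its neighbours on chromosome 19, with 2.81, 2.30 and 2.54 CPM with DMSO and 0.746 and 0.792 CPM at 2 months (log2 1.68 ± 0.346, adjusted p = 0.00152). Of the other effectors, Ifit3 was lower by log2 -5.78 ± 0.438 and Rsad2 by -1.61 ± 0.342. Oasl2, with 3 counts with DMSO and 642 at 2 months, was 366-fold lower with an interval of 125 to 1781. Of those at 0 counts in the line, Ifit1 was at least 109-fold lower, Oas2 at least 37.7-fold and Mx1 at least 15.4-fold.

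Around ISG15, Parp14 had 0.244, 0 and 0.156 CPM with DMSO, against 14.7 and 11.3 CPM at 2 months (log2 -6.75 ± 0.520). Usp18 had 0.652, 0.582 and 0.468 CPM with DMSO, against 5.18 and 4.75 CPM at 2 months (log2 -3.16 ± 0.310). Trim25 had 122, 128 and 121 CPM with DMSO, against 192 and 169 CPM at 2 months (log2 -0.59 ± 0.0646). All 7 members of this list were lower, the other 4 being Isg15 (log2 -3.63 ± 0.713), Trim21 (-1.78 ± 0.204), Dtx3l (-0.78 ± 0.180) and Parp9 (-0.55 ± 0.135). With the length offset Isg15 gave log2 -1.22 with an adjusted p of 0.124.

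Lgals3bp had the largest fitted difference of all members, with 0.0815, 0.291 and 0.234 CPM with DMSO, against 420 and 355 CPM at 2 months (log2 -10.84 ± 0.162, adjusted p = 2.59e-10). Ifi27 had 99.8, 100.01 and 94.2 CPM with DMSO, against 353 and 364 CPM at 2 months (log2 -1.91 ± 0.0577). Lgals9 had 5.58, 3.49 and 3.51 CPM with DMSO, against 59.5 and 55.7 CPM at 2 months (log2 -3.83 ± 0.183). The whole list of other type I targets was lower, with Xaf1 at log2 -6.35 ± 0.459 and Ifi35 at -0.91 ± 0.110, which was 0.02 with the length offset. Ifi44 was at least 43.4-fold lower, and Rtp4, with 3 counts with DMSO and 235 at 2 months, was 134-fold lower with an interval of 45.3 to 655.

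All 10 gamma-type targets tested were lower in the line. Gbp7 had 0.0815, 0.233 and 0 CPM with DMSO, against 58.8 and 53.2 CPM at 2 months (log2 -8.88 ± 0.310, adjusted p = 3.24e-08). Gbp3 had 0, 2 and 0 counts with DMSO and 384 and 417 counts at 2 months, a 686-fold lower level with an interval of 189 to 5671. Iigp1 had 0.652, 0.407 and 0.234 CPM with DMSO, against 24.2 and 22.1 CPM at 2 months (log2 -5.79 ± 0.278). Gbp5 and Gbp6, at 0 in the line, were at least 191-fold and 64.5-fold lower. Irgm1 was lower by log2 -7.27 ± 0.312, Gbp2 by -4.12 ± 0.489, Igtp by -3.00 ± 0.244, Irgm2 by -2.91 ± 0.162 and Irf1 by -1.74 ± 0.135. With hymeglusin the summed level of this list in the line was 39.9 to 40.9 CPM, against 248 and 268 CPM at 2 months.

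Upstream, 6 of 8 receptor chains and kinases were lower in the line, among them Jak2 (log2 -1.64 ± 0.0845) and the gamma receptor chain Ifngr2 (-1.98 ± 0.108), and 1 was higher, the type I receptor chain Ifnar1 (0.25 ± 0.0870). Of 17 sensor adaptors 9 were lower, among them Sting1 (-8.59 ± 0.413), the adaptor of the DNA sensor cGAS, and Zcchc3 (-8.38 ± 0.532), and 7 were higher, among them Traf3 (1.59 ± 0.126) and G3bp1 (0.64 ± 0.0619). That is 52.9% and 41.2% of the adaptors, against 48.5% lower and 34.4% higher of all genes. Of 13 negative regulators 9 were lower, among them Socs3 (-5.39 ± 0.174) and Irf2 (-2.14 ± 0.109), and 3 were higher, among them Ptpn1 (1.01 ± 0.0608) and Ptpn11 (0.58 ± 0.0754). Of 40 other targets 28 were lower, among them Ly6e (-6.33 ± 0.150) and Ifitm3 (-7.93 ± 0.264), and 9 were higher, among them Mov10 (1.75 ± 0.0851) and Ifitm2 (1.23 ± 0.0824). Of the ligands Ifnl3 alone was tested and was lower (-4.84 ± 0.720). All 13 macrophage markers that could be tested were also lower in the line, and so were all 9 spermatid markers, with a summed level of 0.204, 0.204 and 0.390 CPM with DMSO, against 1852 and 2506 CPM at 2 months. With DMSO 8 of 16 macrophage markers and 6 of 9 spermatid markers had 0 counts in every library. Markers near 0 in the line passed the filter only through the 2-month libraries and had to differ, so these counts carry little. The 8 endothelial markers went the other way in sum, with 75.2, 81.2 and 81.1 CPM with DMSO, against 19.1 and 19.8 CPM at 2 months, most of it from Cdh5. Their part in the difference was not tested.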

How the data were processed

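Per the labels' protocols, NEBNext Ultra libraries were made from 1.3 µg of total RNA, purified with an RNeasy column kit. The authors deposited unnormalized counts of reads for each gene symbol in 10 libraries. Per the submitters' processing notes, featureCounts 2.0.6 and HISAT2 2.2.1 were used on mm10, with fastp 0.23.4 and FastQC 0.12.1, and their options are not given in the sources. The table had 25239 symbols with 0 duplicates, and 0 columns belonged to no sample. Even numbers made up 59.7% to 78.2% of counts from 1 to 20, against 49.6% to 51.1% of counts of at least 100, so a fit with counts divided by 2 was added after the data were seen.

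Groups came from the labels. Counts were tested with edgeR 4.0.16 (R 4.3.3) by its quasi-likelihood F-test (robust, two-sided) after filterByExpr (minimum count 10, minimum total 15) and TMM scaling, in separate fits of hymeglusin against DMSO, 24 against 2 months, and DMSO against 2 months, with Benjamini-Hochberg adjustment over all genes tested and a threshold of 0.05. The standard error (SE) is the log2 fold change divided by the square root of F. Levels were scaled by TMM over all 10 libraries without the filter, which moves log2 differences against those of the fits by 0.07, -0.10 and 0.04 in the 3 comparisons. Folds against 0 counts used a floor of 3 counts over the group, and ratios with 1 to 3 counts carry a 95% exact interval. The script was tested on simulated data with 200 changed genes in each comparison. Promoters and positions came from RefSeq (GRCm38.p6).

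Alternatives were limma-voom 3.58.1, DESeq2 1.42.0, scaling by total counts, by the upper quartile or by RLE, a block for the replicate number, no count filter, a mean of at least 10 CPM, a single fit to the 10 libraries together, a per-library loess offset on log transcript length (span 0.3), and each library left out in turn. For every role list, the 3 called members of smallest adjusted p are given by library, other called members by fold change, and the rest by count or range, and for the other lists of the pathway the 2 of smallest adjusted p in each direction. The members and lists were chosen with earlier results of these data known. Replicates of a group differed by more than sampling noise, so each library counted once.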

Additional observations from a re-analysis of the deposited data

How the results depend on the processing

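Calls depended on the setting with hymeglusin and most at 24 months, and few did in the line. Of 26 members called with hymeglusin, 13 kept the call in every setting run, against 3 of 23 at 24 months (Irf1, Gbp2 and Trim25) and 38 of 41 between the line and 2 months. With hymeglusin the number that rose was 10 with a mean of at least 10 CPM, where 13 were tested, and 13 of 45 in 1 fit of all 10 libraries, and the number that fell was 0 with total count scaling and in 1 fit of all 10 libraries. At 24 months 6 rose with total count scaling, where 3.24% of all genes rose, and 10 of 29 with a mean of at least 10 CPM, where 15.5% did, and 4 fell with the length offset, where 5.54% did. Between the line and 2 months 1 was higher and 18 were lower with a mean of at least 10 CPM, where 20 were tested. Leaving out each library in turn gave 23 to 27 higher and 0 to 1 lower with hymeglusin, 2 to 20 higher and 1 to 14 lower at 24 months, and 2 to 3 higher and 39 to 40 lower in the line. Where 1 library was left in a group, it was assumed to vary like the other group. In the hymeglusin fits with a library left out, 20.2% to 22.1% of all genes rose and 21.0% to 23.7% fell. Total count scaling moved the median of all genes to 0.11 with hymeglusin, where 26 members rose and 0 fell and 36.2% and 15.5% of all genes did, and to -0.21 at 24 months, and upper quartile scaling moved it to 0.17 at 24 months. The cause of these shifts was not tested.

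Whether the replicate numbers pair the samples cannot be told. Deviations of same-numbered libraries correlated at 2.06e-05, -0.0236 and 0.0700 in MLTC-1 cells and at -0.0918 in the primary cells. Deviations from the mean of so small a group depend on each other, so low correlations do not exclude pairing. With the replicate number as a block, 25 members rose and 1 fell with hymeglusin, against 24.3% and 25.1% of all genes. At 24 months the block gave 12 rises and 8 falls, against 12.7% and 16.4% of all genes, so the falls lay near the general share. In the line over replicates 1 and 2 it gave 2 higher and 39 lower, against 33.0% and 47.2% of all genes.

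Signs turned, with the cause not tested, in these cases. With hymeglusin, Trim25 gave log2 0.0275 with upper quartile scaling, 0.10 with total counts, 0.0212 with a mean of at least 10 CPM, 0.0794 in 1 fit of all 10 libraries and 0.00287 with counts divided by 2. With a library left out Trim25 ranged over -0.0389 to 0.0278 and Ifit2 over -0.0269 to 0.136. At 24 months, Irgm2 gave log2 0.13 with upper quartile scaling, 0.0373 with a mean of at least 10 CPM, 0.00754 in 1 fit of all 10 libraries and 0.20 with the length offset. Gbp3 gave -0.0792 and Oasl2 -0.19 with total counts, and Oasl2 -0.0342 with no count filter. Bst2 gave -0.48 and Ifi27 -0.0236 with the length offset. With a library left out at either age, Irgm2 ranged over -0.93 to 0.42, Gbp3 over -0.46 to 0.40, Oasl2 over -0.19 to 0.18, Gbp5 over -0.34 to 2.15, Gbp6 over -1.36 to 1.35 and Oas3 over -0.096 to 6.37. In the line, Bst2 gave 0.0629 and Ifi35 0.0204 with the length offset. Depth limits the members with a few counts in MLTC-1 cells, and 2 libraries a group limit the comparison of ages.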
